A study of Mus musculus with 16 samples.

Results

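The Myc and Max network was followed as 10 genes, *Myc*, *Mycn*, *Mycl*, *Max*, *Mxd1*, *Mxd3*, *Mxd4*, *Mxi1*, *Mnt* and *Mga*, which were chosen by symbol from the 54347 genes of the deposited table. All 10 symbols were found, each in 1 row. RNA had been sequenced from LSKs (Lin-Sca-1+c-Kit+ cells, the bone marrow compartment of stem cells and multipotent progenitors) and from GMPs (Lin-Sca-1-c-Kit+Cd16/32+ granulocyte-monocyte progenitors). The cells came from URE^Δ mice, called URE here, and from WT littermates, on the C57BL/6 background and 8 to 12 weeks old, with 4 mice for each genotype and cell type and 16 libraries in all. URE mice lack the upstream regulatory element, an enhancer of *Spi1*, which encodes the transcription factor PU.1. The deletion is carried by every cell of the animal and the mice were sampled before leukemia, so that the difference between genotypes holds the history of the whole animal as well as that of the sorted cell. No treatment was given in any group.

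Proteins of this network bind DNA as pairs through a helix-loop-helix and leucine zipper domain. MAX is the shared partner, which binds the E-box letters CACGTG with MYC, MYCN or MYCL as an activator, or with MXD1, MXD3, MXD4, MXI1, MNT or MGA as a repressor. In bone marrow, MYC and MYCN are known for driving ribosome production, metabolism and division of progenitors, and the MXD proteins for accompanying cell cycle exit and maturation. All of this regulation acts on proteins, whereas the libraries measured RNA.

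Promoter sequences, from 250 bases before to 50 bases after the start of a RefSeq gene model on build GRCm38.p6, were held for 9 of the 10 members (11 windows, since *Mxi1* has 3). No window of *Myc* was used here, so that the letter counts below do not cover it. The letters CACGTG, which read the same on both strands, were found in the windows of *Max*, *Mnt* and *Mxd4*, 3 of the 11, and in 7.15% of the 32851 windows of all genes. The first pair is shown because both genes followed the replicate number in every group, *Mxd4* because it rose in URE GMPs, and *Mycl*, whose window holds no such letters, because it was close to absent from URE libraries. Each sequence is written 5′ to 3′ along the strand of its gene, with CACGTG in capitals. The window of *Max* is chr12:76962199-76962498 on the minus strand, that of *Mnt* is chr11:74830674-74830973 on the plus strand, that of *Mxd4* is chr5:34187661-34187960 on the minus strand, and that of *Mycl* is chr4:122995681-122995980 on the plus strand.
Max: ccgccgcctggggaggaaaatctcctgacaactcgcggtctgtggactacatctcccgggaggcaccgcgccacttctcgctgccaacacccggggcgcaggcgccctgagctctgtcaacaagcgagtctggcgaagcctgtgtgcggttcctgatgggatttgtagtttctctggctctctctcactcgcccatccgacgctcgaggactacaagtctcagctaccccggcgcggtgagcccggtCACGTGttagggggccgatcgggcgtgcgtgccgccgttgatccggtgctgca
Mnt: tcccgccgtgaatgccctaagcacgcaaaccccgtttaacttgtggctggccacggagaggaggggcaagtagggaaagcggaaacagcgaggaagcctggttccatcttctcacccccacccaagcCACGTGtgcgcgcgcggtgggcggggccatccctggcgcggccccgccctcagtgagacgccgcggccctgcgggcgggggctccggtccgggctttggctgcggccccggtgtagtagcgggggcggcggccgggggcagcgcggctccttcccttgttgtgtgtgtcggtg
Mxd4: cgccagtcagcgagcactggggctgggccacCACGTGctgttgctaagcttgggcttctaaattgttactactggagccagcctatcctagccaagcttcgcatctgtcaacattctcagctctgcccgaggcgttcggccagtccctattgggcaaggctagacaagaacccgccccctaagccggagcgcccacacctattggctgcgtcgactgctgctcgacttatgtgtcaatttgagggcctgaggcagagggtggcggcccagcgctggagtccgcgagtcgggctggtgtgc
Mycl: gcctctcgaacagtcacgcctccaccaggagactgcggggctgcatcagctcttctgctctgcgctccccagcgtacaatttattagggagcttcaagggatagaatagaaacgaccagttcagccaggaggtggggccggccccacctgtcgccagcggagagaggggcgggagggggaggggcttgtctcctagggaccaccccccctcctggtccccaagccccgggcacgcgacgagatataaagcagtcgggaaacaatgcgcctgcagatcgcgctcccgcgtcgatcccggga

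In the *Max* window the E-box letters begin 3 bases before the start site and span it. They begin 123 bases before the start site in the *Mnt* window and 219 bases before it in that of *Mxd4*. The letters GAGGAAGT, one form of the PU.1 motif, were searched on both strands and were in none of the 11 windows, against 3.2% of all windows. TGTGGT, the core of the RUNX motif, was in none of them either, against 16.8% of all windows. A match is a description of the letters and not of a bound site.

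Total counts lay between 20028302 and 29128858 per library. *Spi1* was checked first and was low in every URE library, at 1.13 to 4.44 CPM (counts scaled by the TMM library size) in LSKs against 69.5 to 165 CPM in WT LSKs, and at 15.6 to 28.6 CPM in URE GMPs against 84.8 to 181 CPM in WT GMPs. The 8 GMP markers, among them the granule genes *Elane* and *Mpo*, summed to at most 1619 CPM in any LSK library and to at least 55752 CPM in any GMP library, and the summed LSK markers ran the other way, so that the sorted populations matched their labels. Libraries numbered 1 and 4 stood apart from those numbered 2 and 3 in all groups. Every test below therefore carries the replicate number as a block, unless another fit is named. Y-linked transcripts were high in replicate 1 of all groups and in replicates 2 and 3 of WT alone, so that sex is uneven between the genotypes in those numbers. The labels do not say whether same-numbered LSKs and GMPs came from 1 mouse.

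*Myc* was by far the most abundant member per length of transcript in all 4 groups. Its mean level ran from 267 CPM per kilobase in WT LSKs to 336 in URE LSKs, with 312 in WT GMPs and 290 in URE GMPs, and no library of any other member reached the lowest *Myc* library of its group. The order below *Myc* depended on the cell type. In LSKs *Mycn* came next, at 60.2 ± 25.7 (SD, n = 4) CPM per kilobase in WT and 109 ± 43.6 (SD, n = 4) in URE, followed by *Max* at 17.3 ± 12.5 and 22.2 ± 13.5 (SD, n = 4 each). *Mycn* and *Max* overlapped in WT LSKs and did not in URE LSKs. In GMPs *Max* came next, at 32.3 ± 28.7 (SD, n = 4) CPM per kilobase in WT and 20.6 ± 19.2 (SD, n = 4) in URE, and it overlapped its neighbour in the order in both genotypes. *Mga*, *Mxd3*, *Mxd1*, *Mxd4*, *Mxi1* and *Mnt* followed between 1.43 and 9.51 CPM per kilobase in the group means, and most neighbours among them overlapped. *Mycl* was last in every group, with a group mean of at most 0.362 CPM per kilobase, and its libraries overlapped those of *Mnt* in WT GMPs alone.

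**Figure D1:**
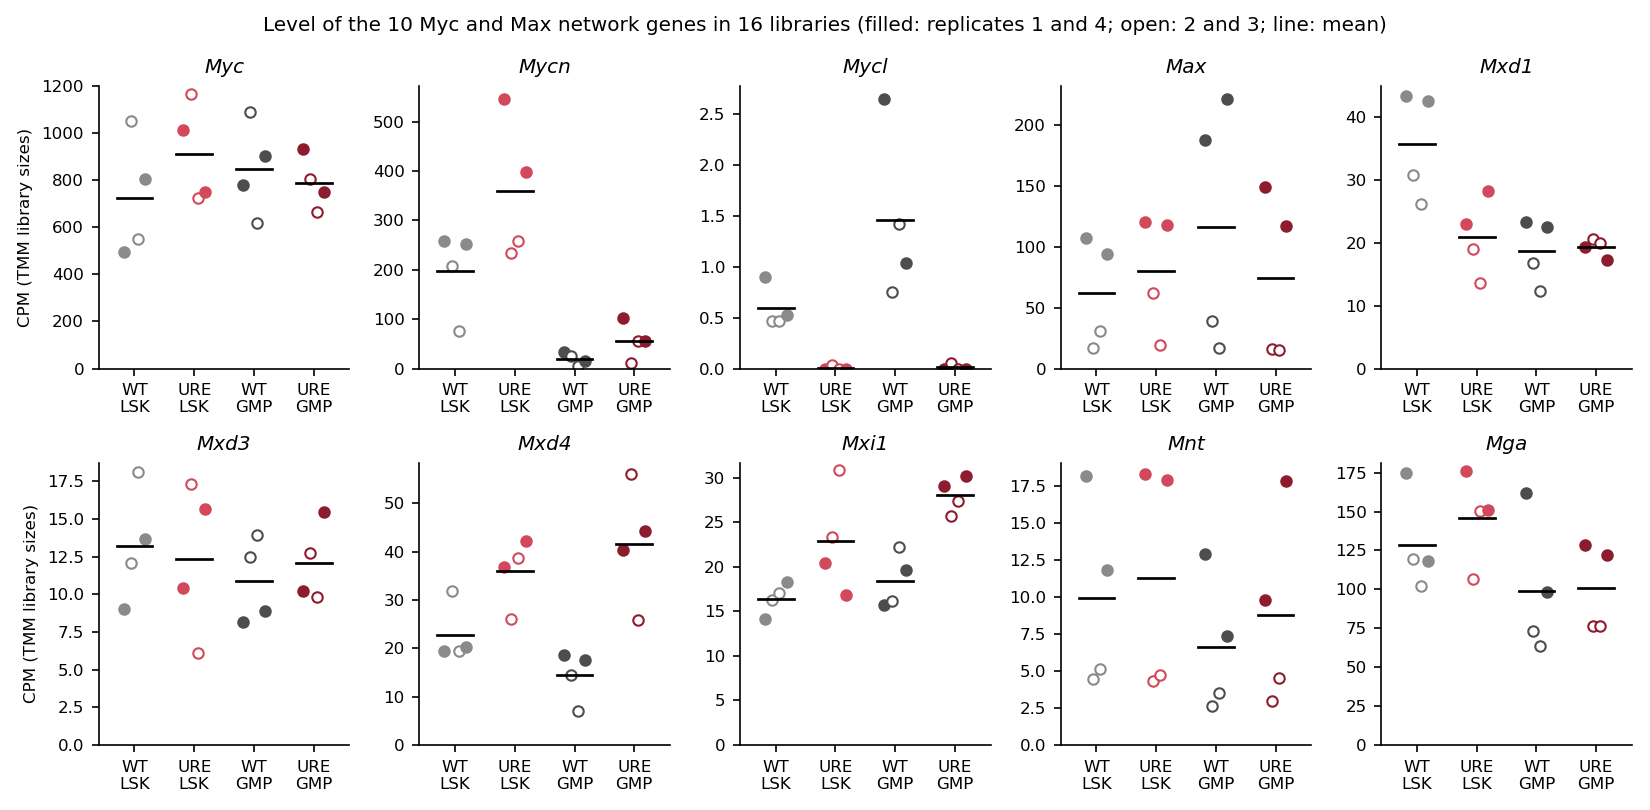
Level of each of the 10 members in CPM on TMM library sizes (vertical axis, linear from 0, its own scale for each gene) in the 4 groups (horizontal axis). Each circle is 1 library, filled for replicates 1 and 4 and open for replicates 2 and 3, and the line is the mean of 4. *Mycl* was near 0 in both URE groups, *Mycn* was lower in GMPs than in LSKs of both genotypes, and the filled circles lay above the open ones in every group for *Max* and *Mnt*.

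A call needed an adjusted p under 0.05 together with a fold above 1.5 (edgeR quasi-likelihood test, adjusted over all genes tested). Between the genotypes *Mycl* passed the filter on low counts through its WT libraries alone, could only have been called lower, and is left out of the next pair of counts. Between URE and WT LSKs, 0 of the other 9 members rose and 1 fell, *Mxd1*, where 3.83% of all 15154 genes tested rose and 5.62% fell. In GMPs 2 of 9 rose, *Mxd4* and *Mxi1*, and 1 fell, *Max*, against 9.52% and 6.82% of 13829 genes. Between the cell types of WT, 1 of 10 rose from LSKs to GMPs, *Mycl*, and 4 fell, *Mycn*, *Mxd1*, *Mxd4* and *Mnt*, against 15.8% and 25.1% of 14767 genes. In URE, 0 of the 9 members that could be tested rose and 2 fell, *Mycn* and *Mga*, against 13.3% and 18.6% of 14395 genes. With 10 genes, each of these counts rests on 0 to 4 calls, so what follows describes single genes and not a shift of the family. Without the replicate block the counts of called members in these 4 comparisons were 0 and 1 between the genotypes, *Mycl* again left out, and 2 and 1 between the cell types.

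**Figure D2:**
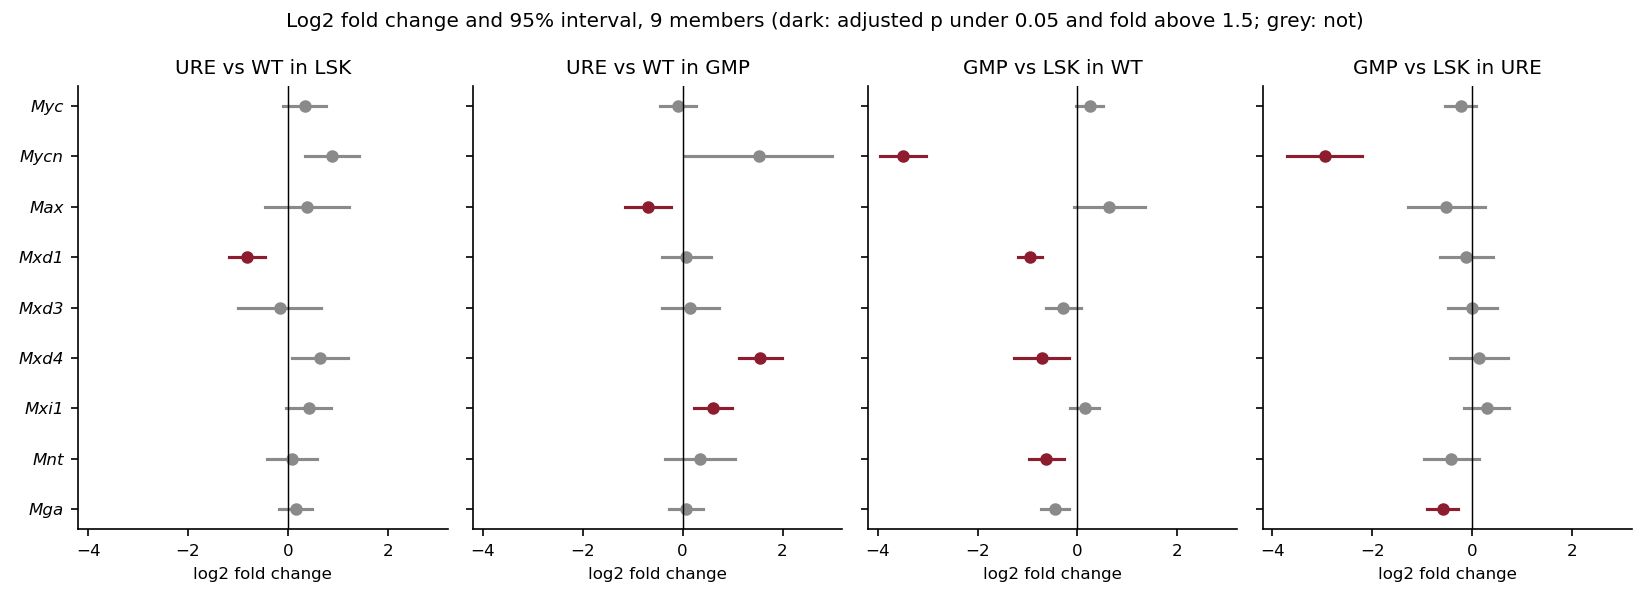
Log2 fold change (horizontal axis) of 9 members (rows) in the 4 comparisons (panels), from the edgeR fit with the replicate block. Points are estimates and lines are 95% intervals from 8 libraries, dark where the adjusted p was under 0.05 and the fold above 1.5. *Mycl* is left out because its fitted change against a group near 0 counts depends on the prior count. *Mycn* had the largest changes, down in GMPs of both genotypes, and *Mxd4* rose by 1.55 in URE GMPs.

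*Myc* (chr15:61985391-61990374, plus strand, GRCm38) encodes the main activator of the network. It measured 497, 1052, 551 and 803 CPM in WT LSKs (replicates 1 to 4) and 1012, 1167, 724 and 749 CPM in URE LSKs. In GMPs it measured 779, 1091, 617 and 902 CPM in WT and 935, 804, 666 and 751 CPM in URE. The 4 groups overlapped throughout. Its log2 fold change between genotypes was 0.33 ± 0.19 (SE, n = 4 per group) in LSKs, with an adjusted p of 0.349, and -0.09 ± 0.16 in GMPs, with an adjusted p of 0.726. The 95% intervals ran from -0.10 to 0.77 in LSKs and from -0.45 to 0.26 in GMPs. From LSKs to GMPs the change was 0.25 ± 0.12 in WT, higher in 4 of 4 same-numbered pairs, and -0.23 ± 0.14 in URE, lower in 3 of 4 pairs, with adjusted p of 0.103 and 0.206. Neither passed the test, and the difference between these changes was -0.42 with an adjusted p of 0.337.

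*Mycn* (chr12:12936093-12941914, minus strand) encodes N-MYC, which is known to act beside MYC in blood stem cells. It measured 259, 207, 75.9 and 252 CPM in WT LSKs and 545, 234, 258 and 397 CPM in URE LSKs. In WT GMPs it measured 32.8, 24.4, 4.79 and 15.8 CPM, and in URE GMPs 102, 11.95, 56.4 and 54.9 CPM. Every GMP library of WT lay below every LSK library of WT and the same held in URE. The fall from LSKs to GMPs was -3.49 ± 0.20 on the log2 scale in WT (SE, adjusted p = 7.31e-06) and -2.95 ± 0.33 in URE (adjusted p = 0.000349). Both falls were called under all 19 alternatives.

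Between genotypes *Mycn* was higher in URE LSKs in 4 of 4 same-numbered pairs, by 0.89 ± 0.23 on the log2 scale, with an adjusted p of 0.0514, which misses the threshold. It was called under 5 of 19 alternatives, among them DESeq2 with the block (0.92, adjusted p = 0.00218). In GMPs the difference was 1.52 ± 0.64, higher in 3 of 4 pairs, with an adjusted p of 0.142. Replicate 2 ran against the other 3 pairs, and without the URE library of that number the difference was 2.26 with an adjusted p of 0.00975. The share of *Mycn* in the summed level of *Myc*, *Mycn* and *Mycl* per kilobase was 10.2% to 30.03% in WT LSKs, 14.2% to 30.8% in URE LSKs, 0.635% to 3.35% in WT GMPs and 1.21% to 8.24% in URE GMPs. The shares of LSKs and GMPs did not overlap, and those of the genotypes did.

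**Figure D3:**
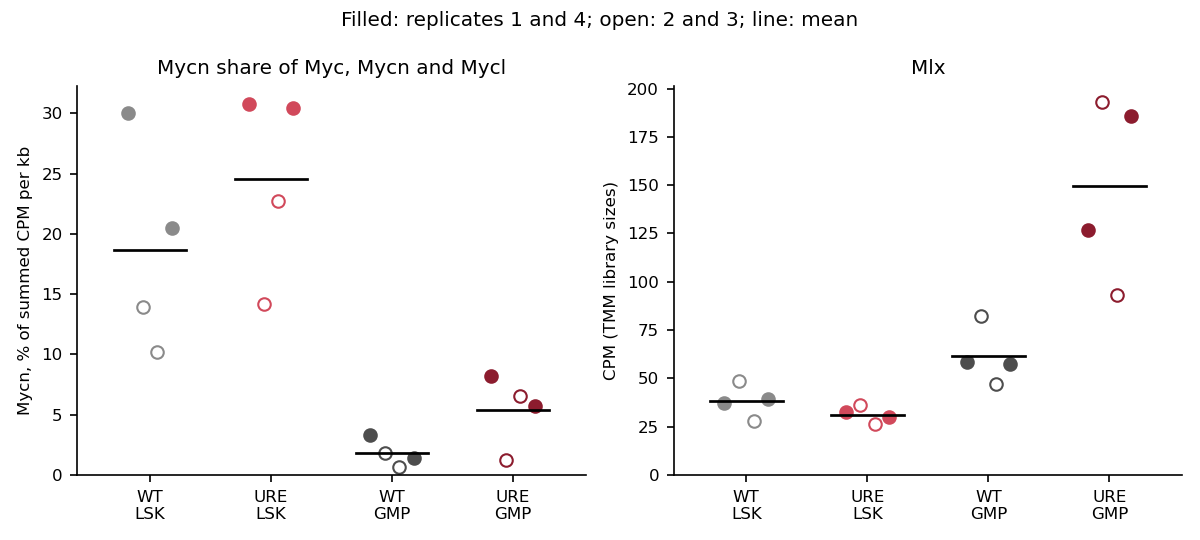
Left, *Mycn* as a percentage of the summed CPM per kilobase of *Myc*, *Mycn* and *Mycl* in each library; right, *Mlx* in CPM on TMM library sizes. Circles are libraries (filled, replicates 1 and 4; open, replicates 2 and 3) and lines are means of 4, by group on the horizontal axis. The share of *Mycn* was at least 10.2% in LSKs and at most 8.24% in GMPs, and *Mlx* was above 93 CPM in each URE GMP library and below that in all others.

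*Mycl* (chr4:122995652-123002485, plus strand) encodes L-MYC, which is known from dendritic cells. It had 28, 14, 12 and 13 counts in WT LSKs and 61, 18, 29 and 20 counts in WT GMPs. In URE it had 0, 1, 0 and 0 counts in LSKs and the same numbers in GMPs. The genotypes did not overlap in either cell type. Summed over the 4 libraries and scaled by library size, WT exceeded URE 62.2-fold in LSKs (67 against 1 count, exact 95% counting interval 10.8 to 2494) and 114-fold in GMPs (128 against 1 count, 20.04 to 4524). No p is read from the fitted test here, since *Mycl* entered it only through the WT libraries where it is high. In WT *Mycl* rose from LSKs to GMPs by 1.21 ± 0.34 (adjusted p = 0.0155). Without the block this was 1.29 with an adjusted p of 0.0675, and with single libraries left out the adjusted p ran from 0.0270 to 0.0808. In URE it had too few counts for a test.

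Markers of other cells were followed in the same comparisons as *Mycl*. The 5 dendritic cell markers summed to 236 to 611 CPM in WT LSKs against 82.3 to 278 CPM in URE LSKs, and to 202 to 302 CPM in WT GMPs against 16.2 to 50.2 CPM in URE GMPs. Of the 4 that could be tested in each cell type, 2 fell in LSKs (*Cd74* and *H2-Aa*) and 3 in GMPs (the same pair and *H2-Ab1*), where 5.62% and 6.82% of all genes fell, and *Siglech* was at 0 in URE LSKs. The 8 monocyte or macrophage markers summed to 107 to 172 against 34.8 to 56.9 CPM in LSKs and to 585 to 917 against 72.2 to 267 CPM in GMPs, and 4 and 6 of them fell, against the same shares. *Ly86*, 1 of the 4 in LSKs, passed the filter through its WT libraries alone and could only be called lower. B cell markers gave 1 fall of 4 tested in LSKs and 1 of 3 in GMPs, and T cell markers 2 of 3 and 0 of 2. From LSKs to GMPs in WT, where *Mycl* rose, 6 of the 8 monocyte or macrophage markers rose as well (median 1.83 on the log2 scale) and 3 of the 5 dendritic cell markers fell (median -0.62), where 15.8% of all genes rose, 25.1% fell and the median was -0.10. In bulk samples fewer cells of a type and less RNA per cell cannot be told apart, and the part of these markers in the result was not tested.

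*Max* (chr12:76937269-76962201, minus strand), the shared partner, varied more between replicate numbers than between groups. It measured 107, 16.8, 30.5 and 93.8 CPM in WT LSKs, 120, 61.6, 19.4 and 118 CPM in URE LSKs, 188, 39.1, 17.2 and 222 CPM in WT GMPs, and 149, 15.8, 15.1 and 117 CPM in URE GMPs. In each group replicates 1 and 4 lay above replicates 2 and 3, by 4.25-fold in WT LSKs, 2.94-fold in URE LSKs, 7.26-fold in WT GMPs and 8.61-fold in URE GMPs (ratio of mean CPM, 2 libraries against 2). *Mnt* did the same, at 3.13-fold, 4.0-fold, 3.29-fold and 3.67-fold in that order. Of 12685 genes whose log2 CPM averaged at least 0, 15.0% had both libraries of numbers 1 and 4 above both of numbers 2 and 3 in all 4 groups, and 7.32% had them below. The mean log2 difference of *Max* was 2.50, which 159 of these genes, *Max* included, reached, and *Mnt*, at 1.76, was at percentile 96.0. *Mycn*, *Mga* and *Mxd1* were also higher in numbers 1 and 4 on average, by 1.13, 0.58 and 0.45, *Mxd4* gave 0.25, and *Myc*, *Mxd3* and *Mxi1* lay between -0.14 and -0.03. *Mycl* was below this minimum. These are descriptions with no test. What separates the replicate numbers is not given in the labels and was not tested.

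**Figure D4:**
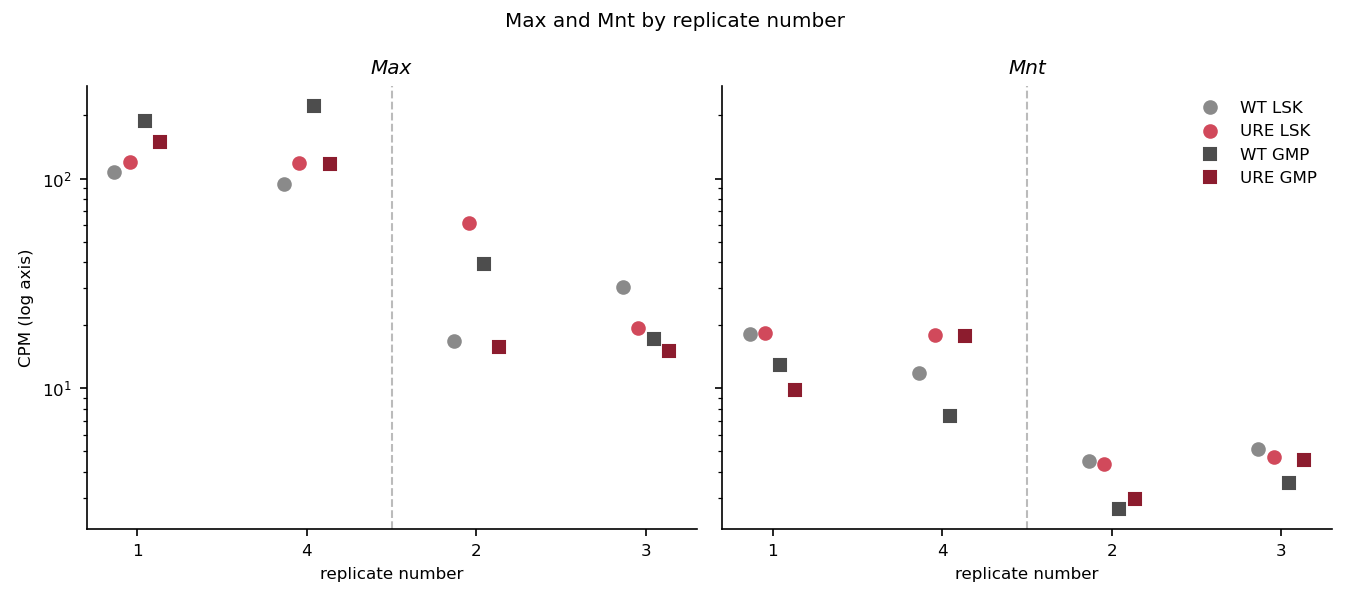
CPM of *Max* and *Mnt* (vertical axis, log scale) by replicate number (horizontal axis, ordered 1, 4, 2, 3, with a dashed line between the sets). Each symbol is 1 library, coloured by group. In all 4 groups both genes were higher in replicates 1 and 4, from 2.94-fold to 8.61-fold for *Max* in the mean of 2 libraries.

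With the block in the fit, *Max* fell in URE GMPs by 0.70 ± 0.20 on the log2 scale (adjusted p = 0.0472), lower in 4 of 4 same-numbered pairs. The call rests on the block, since without it the change was -0.64 with an adjusted p of 0.791. It was -0.64 (adjusted p = 0.141) in replicates 1 and 4 alone and -0.88 (adjusted p = 0.483) in replicates 2 and 3 alone, and it was kept in 7 of 19 alternatives. In LSKs the change was 0.38 ± 0.37, with an adjusted p of 0.607. From LSKs to GMPs it was 0.64 ± 0.31 in WT (adjusted p = 0.113) and -0.52 ± 0.33 in URE (adjusted p = 0.253). Replicate 3 ran against the other WT pairs, and without its GMP library the WT change was 1.12 with an adjusted p of 0.000109.

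*Mxd1* (chr6:86647042-86669161, minus strand) encodes a repressor that is known to rise as myeloid cells leave the cell cycle. It measured 43.3, 30.7, 26.1 and 42.5 CPM in WT LSKs, and all other groups lay lower in the mean. URE LSKs had 22.9, 19.0, 13.6 and 28.3 CPM, WT GMPs 23.3, 16.7, 12.3 and 22.5 CPM, and URE GMPs 19.3, 20.6, 19.9 and 17.2 CPM. It fell in URE LSKs by 0.82 ± 0.15 (adjusted p = 0.0142), lower in 4 of 4 pairs. Without the block this was -0.80 with an adjusted p of 0.152, and without replicate 1 of URE or WT LSKs the adjusted p was 0.110 or 0.112. In WT it fell from LSKs to GMPs by 0.95 ± 0.10 (adjusted p = 0.000140), and the WT groups did not overlap. In URE the same step gave -0.12 ± 0.23, with an adjusted p of 0.710. The genotype effect differed between the cell types by 0.89 ± 0.25, with an adjusted p of 0.0545 that misses the threshold, and by 0.85 (adjusted p = 0.0153) in DESeq2 with the block.

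*Mxd4* (chr5:34173883-34187720, minus strand), another MXD repressor, differed between the genotypes in GMPs under nearly every setting tried. It measured 18.7, 14.4, 7.08 and 17.6 CPM in WT GMPs and 40.4, 56.0, 25.8 and 44.3 CPM in URE GMPs. Every URE GMP library lay above every WT one. It rose by 1.55 ± 0.19 (adjusted p = 0.00128) and was called in 18 of 19 alternatives, the exception being replicates 2 and 3 alone (1.89, adjusted p = 0.183). In LSKs it measured 19.5, 31.9, 19.4 and 20.4 CPM in WT and 36.9, 26.1, 38.6 and 42.2 CPM in URE, a difference of 0.64 ± 0.24 with an adjusted p of 0.161. The second replicate was the exception there, and without its URE library the difference was 0.97 with an adjusted p of 0.0220. In WT *Mxd4* fell from LSKs to GMPs by 0.72 ± 0.24 (adjusted p = 0.0328), which did not hold without the block (-0.67, adjusted p = 0.153) nor without replicate 2 or 3 of either cell type, and in replicates 1 and 4 alone the change was -0.14. In URE that step gave 0.14 ± 0.25 (adjusted p = 0.694). The genotype effects in GMPs and LSKs differed by 0.84 ± 0.37 with an adjusted p of 0.199. *Mxd4* shares 514 exonic bases with *Gm42846* on the other strand, which had 339 counts in all 16 libraries together, and without strand their reads cannot be told apart.

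*Mxi1* (chr19:53310518-53375810, plus strand) encodes a repressor of the same group. It measured 15.7, 16.1, 22.3 and 19.7 CPM in WT GMPs and 29.1, 25.7, 27.3 and 30.2 CPM in URE GMPs, with no overlap. It rose by 0.61 ± 0.16 (adjusted p = 0.0364). Without the block this was 0.60 with an adjusted p of 0.103, and the adjusted p lay between 0.0997 and 0.132 when replicate 1, 2 or 4 of either genotype was left out. It was called in 9 of 19 alternatives, among them the joint fit of all libraries but not that fit with Y-linked transcripts as a covariate. In LSKs it measured 14.1, 16.3, 17.0 and 18.3 CPM in WT and 20.5, 23.3, 30.9 and 16.8 CPM in URE, a difference of 0.42 ± 0.20 with an adjusted p of 0.257. From LSKs to GMPs it gave 0.14 ± 0.12 in WT and 0.29 ± 0.19 in URE, with adjusted p of 0.347 and 0.279.

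*Mxd3* (chr13:55325168-55329823, minus strand), an MXD protein known from dividing cells, lay between 6.10 and 18.1 CPM in the 16 libraries and all groups overlapped. Its 4 log2 changes ran from -0.28 to 0.15, with adjusted p of at least 0.150. It shares 105 exonic bases with *Prelid1* on the other strand, which had 33473 counts, so that some of its reads may belong to that gene.

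*Mnt* (chr11:74830920-74845725, plus strand) encodes the most broadly expressed MAX-binding repressor. It measured 18.2, 4.49, 5.11 and 11.8 CPM in WT LSKs and 12.9, 2.66, 3.52 and 7.36 CPM in WT GMPs, lower in 4 of 4 same-numbered pairs. It fell by 0.62 ± 0.15 in WT GMPs (adjusted p = 0.00865), and without the block by 0.59 with an adjusted p of 0.512. The fall was called in 10 of 19 alternatives. With single libraries left out the change ran from -0.67 to -0.54 and the adjusted p reached 0.0529. In URE it measured 18.3, 4.34, 4.71 and 17.9 CPM in LSKs and 9.83, 2.98, 4.56 and 17.8 CPM in GMPs. That difference was -0.42 ± 0.24, also lower in 4 of 4 pairs, with an adjusted p of 0.206. Between genotypes it gave 0.08 ± 0.22 in LSKs and 0.35 ± 0.30 in GMPs, with adjusted p of 0.874 and 0.478.

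*Mga* (chr2:119897228-119969581, plus strand) encodes a very large MAX partner of the repressive complex PRC1.6. It measured 175, 120, 102 and 118 CPM in WT LSKs, 176, 107, 150 and 151 CPM in URE LSKs, 162, 73.1, 63.8 and 98.1 CPM in WT GMPs and 129, 76.2, 76.8 and 122 CPM in URE GMPs. It was lower in GMPs in 4 of 4 pairs of either genotype, by 0.45 ± 0.12 in WT (adjusted p = 0.0127, under the fold of 1.5) and by 0.59 ± 0.14 in URE (adjusted p = 0.0110, a call). The URE change sits at the fold threshold and was called in 7 of 19 alternatives. Without the block it was -0.58 with an adjusted p of 0.120. Between genotypes *Mga* gave 0.16 ± 0.14 in LSKs and 0.07 ± 0.15 in GMPs, with adjusted p of 0.592 and 0.793.

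No member was called in the test of whether the genotype effect differed between LSKs and GMPs (edgeR, 16 libraries), where 3.97% of 15935 genes were called with a higher and 2.6% with a lower effect in GMPs. At an unadjusted p under 0.05 there were 2 of 10, *Mxd1* and *Mxd4*, both higher, where 12.1% of all genes were higher and 9.87% lower. *Mycl* is among the 10 but passed the filter through its WT libraries alone, so its lack of a call says nothing here. DESeq2 with the block called 1, *Mxd1*, as higher, against 6.36% of the genes it gave an adjusted p, and DESeq2 without the block called 0, against 2.52%.

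Summed per kilobase, *Myc*, *Mycn* and *Mycl* together measured 226 to 450 CPM per kilobase in WT LSKs, 345 to 538 in URE LSKs, 229 to 409 in WT GMPs and 262 to 375 in URE GMPs. The repressors *Mxd1*, *Mxd3*, *Mxd4*, *Mxi1* and *Mnt* summed to 16.6 to 19.4 in WT LSKs, 14.6 to 21.9 in URE LSKs, 12.3 to 14.04 in WT GMPs and 15.0 to 22.5 in URE GMPs. These repressor sums of WT and URE GMPs did not overlap. They leave out *Mga*, which had a higher mean per kilobase than each of these repressors in every group. *Mga* overlapped between the genotypes in GMPs, at 4.16 to 10.5 CPM per kilobase in WT and 4.97 to 8.39 in URE. The separation therefore holds for the summed repressors named here and not for all repressors of the network. The summed activators exceeded *Max* RNA in every library, by 5.48-fold to 16.1-fold in replicates 1 and 4 and by 26.6-fold to 96.6-fold in replicates 2 and 3. These sums are descriptions of RNA levels with no test.

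MLX is the centre of a parallel branch of the network, with partners encoded by *Mlxip* and *Mlxipl* that respond to glucose. *Mlx* measured 37.3, 48.5, 27.8 and 39.4 CPM in WT LSKs, 32.5, 36.1, 26.3 and 30.03 CPM in URE LSKs, 58.3, 82.3, 47.3 and 57.6 CPM in WT GMPs, and 127, 193, 93.1 and 186 CPM in URE GMPs. Every URE GMP library lay above all the others. It rose in URE GMPs by 1.24 ± 0.15 (adjusted p = 0.00149), from LSKs to GMPs by 0.67 ± 0.09 in WT (adjusted p = 0.000493) and by 2.17 ± 0.17 in URE (adjusted p = 6.35e-05). The difference between these steps was 1.53 ± 0.18 (adjusted p = 0.000433), called in 24 of 25 alternatives. *Mlxip* was called in none of the 4 comparisons nor in the interaction. *Mlxipl*, which had at most 21 counts in any library, could be tested only in URE GMPs against WT GMPs, in URE GMPs against URE LSKs and in the interaction, and it was called in none of these.

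Partners that the repressors recruit and cofactors of MYC were followed as 3 lists. In URE GMPs 9.52% of all genes tested rose and 6.82% fell, from LSKs to GMPs 15.8% rose and 25.1% fell in WT, and 13.3% rose and 18.6% fell in URE. Of 9 genes of the SIN3-HDAC corepressor, 1 fell in URE GMPs, *Sap30* (-1.21 ± 0.34, adjusted p = 0.0430), and none was called in the other 3 comparisons. *Sap30* lay between 0.522 and 9.43 CPM in GMPs, and its call was kept in 7 of 19 alternatives, with an adjusted p of up to 0.147 when single libraries were left out. Of 12 genes of PRC1.6, the complex of MGA, *Yaf2* rose in URE GMPs (0.78 ± 0.15, adjusted p = 0.00982) and *Cbx3* fell (-0.85 ± 0.16, adjusted p = 0.00916), none was called in LSKs, and 3 rose from LSKs to GMPs in WT (*Tfdp1*, *Cbx3*, *L3mbtl2*) and 2 in URE (*L3mbtl2*, *Tfdp1*). Of 15 coactivators and cofactors of MYC, none was called between genotypes. *Ruvbl2*, a chromatin remodelling helicase, rose from LSKs to GMPs by 1.17 ± 0.10 in WT and 0.61 ± 0.14 in URE (adjusted p of 3.47e-05 and 0.0115), and *Bptf* fell in URE by 0.62 ± 0.12 (adjusted p = 0.00446), near the fold of 1.5 and called in 8 of 19 alternatives.

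Of 17 regulators of MYC protein stability, 3 fell in URE GMPs and 0 rose, against 6.82% and 9.52% of all genes. These were *Set*, an inhibitor of the phosphatase that destabilises MYC (-0.96 ± 0.14, adjusted p = 0.00314), *Fbxw7*, the ubiquitin ligase subunit that marks MYC for degradation (-0.70 ± 0.17, adjusted p = 0.0241), and *Gsk3b*, the kinase that prepares it for that ligase (-0.63 ± 0.14, adjusted p = 0.0199). *Set* was called in 18 of 19 alternatives, *Gsk3b* in 8 and *Fbxw7* in 6. The call of *Fbxw7* was lost whichever single library was left out (adjusted p from 0.0524 to 0.0886), and that of *Gsk3b* without replicate 1, 3 or 4 of either genotype (adjusted p of up to 0.0690). In LSKs 1 rose, against 3.83% of all genes, *Ppp2r5a*, a phosphatase subunit (0.76 ± 0.15, adjusted p = 0.0190), which was lost without replicate 1 or 4 of either genotype (adjusted p of up to 0.0889). Across the cell types 5 rose from LSKs to GMPs and 1 fell in WT, where 15.8% and 25.1% of all genes did. In URE 3 rose and 4 fell, where 13.3% and 18.6% of all genes did, and *Fbxo32* fell in both, by 2.08 and 1.53 on the log2 scale. MYC protein was not measured.

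The 2 lists of known MYC target genes hold 37 genes of the nucleolus and ribosome assembly and 40 genes of growth, metabolism and chaperones, 77 in all, and all 77 were tested in each comparison. From LSKs to GMPs in WT, 56 rose and 0 fell, which is 72.7% against 15.8% of all genes tested. In URE 15 rose and 1 fell, *Ccnd2*, which is 19.5% against 13.3%, and each of the 15 had also risen in WT. The medians were 0.77 and 0.23 on the log2 scale, where the median of all genes was -0.10 and -0.07. *Bysl*, which acts in small ribosomal subunit assembly, measured 34.7, 38.8, 22.5 and 38.8 CPM in WT LSKs and 92.9, 90.7, 52.6 and 92.8 CPM in WT GMPs, and it rose by 1.27 ± 0.09 in WT (adjusted p = 2.05e-05) and by 0.78 ± 0.14 in URE (adjusted p = 0.00280). *Srm*, spermidine synthase, rose by 2.09 ± 0.16 and 1.47 ± 0.22 (adjusted p of 2.48e-05 and 0.00142). *Tfrc*, the transferrin receptor, rose by 2.13 ± 0.16 in WT and by 2.70 ± 0.32 in URE.

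Between genotypes the target genes gave few calls. In LSKs none of the 77 was called by the edgeR fit used here, and other edgeR settings called up to 4 higher (the joint fit of all libraries). At an unadjusted p under 0.05 there were 19 higher and 0 lower, where 10.4% of all genes were higher and 12.6% lower. DESeq2 with the block called 4 higher, which is 5.19% against 4.97% of the genes it gave an adjusted p. The median change of the 77 was 0.14, and 60 had a positive change, which is 77.9% against 48.0% of all genes. In GMPs 1 rose, *Tfrc* (0.62 ± 0.15, adjusted p = 0.0274), and 6 fell. These are 1.3% against 9.52% and 7.79% against 6.82% of all genes. The count of 6 became 2 without the block and 2 to 5 with single libraries left out. At an unadjusted p under 0.05 there were 2 higher and 25 lower, where 17.8% of all genes were higher and 14.3% lower. Among the falls were *Mthfd2*, an enzyme of mitochondrial folate metabolism (-0.92 ± 0.14, adjusted p = 0.00406), *Slc7a5*, an amino acid transporter subunit (-0.79 ± 0.23, adjusted p = 0.0452), *Odc1*, the first enzyme of polyamine synthesis (-0.74 ± 0.18, adjusted p = 0.0279), and *Nop16* (-0.67 ± 0.13, adjusted p = 0.0122). *Mthfd2* was called in 17 of 19 alternatives, *Nop16* in 13, *Slc7a5* in 9, *Odc1* in 8 and *Tfrc* in 7. With single libraries left out the adjusted p reached 0.0573 for *Nop16*, 0.125 for *Slc7a5*, 0.0966 for *Odc1* and 0.126 for *Tfrc*. The median over the 77 was -0.25, where 10 had a positive change, which is 13.0% against 51.3% of all genes. Markers of maturing granulocytes moved in the same comparison. The 7 mature neutrophil markers summed to 67.7 to 171 CPM in WT GMPs and 226 to 1010 CPM in URE GMPs, with none at 0 throughout a group, and 4 of them rose and 1 fell (median 1.93). Of the 8 GMP markers, 6 rose and 1 fell, and they summed to 55752 to 71255 CPM in WT GMPs and 73868 to 160630 CPM in URE GMPs. In URE LSKs 4 of 6 mature neutrophil markers tested were called higher and none lower. The same held for 3 of 5 mast cell or basophil markers, where 3.83% of all genes rose. *Gzmb*, 1 of these 3, passed the filter through its URE libraries alone and could only be called higher. *Cxcr2*, *Ms4a2* and *Prss34* of these lists were lower in 4 of 4 same-numbered pairs. In URE GMPs 2 of 6 mast cell or basophil markers rose and 2 fell, against 9.52% and 6.82% of all genes. The 8 GMP markers split in URE LSKs, where 2 rose and 2 fell. In URE LSKs 4 of 8 monocyte or macrophage markers and 3 of 10 LSK markers fell and none rose, where 5.62% of all genes fell. *Ly86*, 1 of the 4 monocyte or macrophage markers, passed the filter through its WT libraries alone and could only be called lower. The part of these markers in the targets' changes was not tested. In the interaction test 18 had a lower genotype effect in GMPs than in LSKs and 0 a higher one, which is 23.4% against 2.6% of all genes. The largest were *Hk2* (-1.13 ± 0.27, adjusted p = 0.0259) and *Dctpp1* (-1.07 ± 0.19, adjusted p = 0.00576), called in 15 and 21 of 25 alternatives. In edgeR this count rests on the block, and without it the interaction test called none of the 77 and 194 of all genes. It was 1 in replicates 1 and 4 alone and 0 in replicates 2 and 3 alone, and it lay between 4 and 21 when single libraries were left out, lowest without replicate 1 of URE or WT LSKs. DESeq2 called 29 of the 77 lower with the block and 7 without it. Of the genes it gave an adjusted p, 5.93% and 1.56% were lower in these fits. The 4 comparisons share libraries pairwise.

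**Figure D5:**
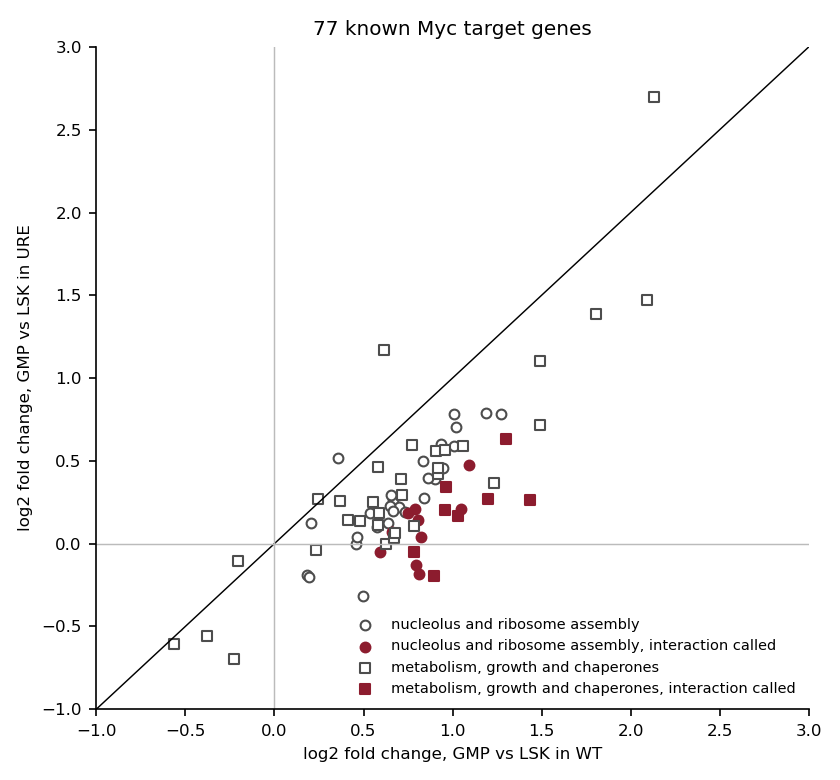
Log2 fold change from LSKs to GMPs in WT (horizontal axis) and in URE (vertical axis) of 77 known MYC target genes, each point 1 gene fitted on 8 libraries per genotype with the replicate block. Circles are genes of the nucleolus and ribosome assembly and squares are genes of growth, metabolism and chaperones, filled where the interaction was called (18 genes), with a diagonal where both changes are equal. Most points lay to the right of 0 and below the diagonal.

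Division genes moved beside the targets. Of 12 proliferation genes, 11 rose from LSKs to GMPs in WT and 6 in URE, against 15.8% and 13.3% of all genes, led in both by *Rrm2* (1.83 ± 0.09 and 1.44 ± 0.19), and 1 was called between genotypes, *Mcm2*, which rose in URE LSKs (0.62 ± 0.15, adjusted p = 0.0439), where 3.83% of all genes rose. *Mcm2* was called in 7 of 19 alternatives, and with single libraries left out its adjusted p reached 0.196. None of the 12 was called in the interaction test, but their median difference was -0.35 on the log2 scale, close to the -0.44 of the 77 targets, where the median of all genes was 0.03. The part of division in the target genes' changes was not tested.

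Genes known to be repressed by MYC gave a mixed picture. Of 8 tested, *Ndrg1* fell in URE LSKs by 2.28 ± 0.18 (adjusted p = 0.000392) and in URE GMPs by 1.65 ± 0.24 (adjusted p = 0.00282), *Cdkn1a*, the cell cycle inhibitor p21, fell in URE LSKs by 0.75 ± 0.18 (adjusted p = 0.0396), and *Ndrg2* rose in URE GMPs by 1.82 ± 0.16 (adjusted p = 0.000377). That is 2 of 8 lower in LSKs, against 5.62% of all genes, and 1 lower and 1 higher in GMPs, against 6.82% and 9.52%. The call of *Cdkn1a* was kept in 5 of 19 alternatives and was lost whichever single library was left out, with an adjusted p from 0.0685 to 0.203. From LSKs to GMPs in WT, 3 of 8 fell and 1 rose, against 25.1% and 15.8% of all genes, and in URE 1 fell and 1 rose, against 18.6% and 13.3%. *Txnip* fell in both genotypes, by 2.27 ± 0.10 and 1.93 ± 0.26, and *Cdkn1a* rose in both, by 0.98 ± 0.12 and 2.01 ± 0.18. *Ndrg1* and *Ndrg2* fell in WT, by 0.79 ± 0.12 and 0.78 ± 0.15, and gave -0.22 ± 0.22 and 0.47 ± 0.16 in URE, neither of which was a call. Of early stress response genes, which cell handling is known to induce, 7 of 11 tested fell and 2 rose from LSKs to GMPs in WT, where 25.1% of all genes fell and 15.8% rose. In URE 4 fell and 2 rose, against 18.6% and 13.3%. *Egr1*, 1 of the 7, had 5 to 9 counts in WT GMPs, passed the filter through LSKs alone and could only be called lower. *Hspa1a*, 1 of the 2 rises in either genotype, passed through GMPs alone and could only be called higher. It had 0 to 58 counts in WT LSKs and 0 to 4 in URE LSKs. Between genotypes 1 of 10 was called in GMPs, *Jun*, which rose (1.21 ± 0.24, adjusted p = 0.0118) and whose adjusted p reached 0.0661 with single libraries left out, and none in LSKs.

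Over the 16 libraries, the genes whose log2 CPM was most like that of *Myc* among 9071 genes averaging at least 3 log2 CPM were *Ddx47* (Pearson r = 0.80), *Dcun1d2* (0.79), *Lgals9* (0.77), *Rrp8* (0.77) and *Prpf3* (0.75). Those most like *Max* were *Pacsin2* (0.93), *Rbm42* (0.92), *Rad21* (0.92), *Cotl1* (0.92) and *Nle1* (0.92). Among the members, after group means were removed, *Max* followed *Mnt* (r = 0.86), *Mga* (0.74) and *Mxd1* (0.68), and *Mnt* followed *Mga* (0.82), whereas *Max* and *Myc* gave 0.10. These are descriptions over libraries that share the replicate numbers, and no p is given.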

How the data were processed

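RNA of sorted LSKs and GMPs from 4 mice per genotype and cell type was measured in 16 low-input libraries. The libraries are unstranded, used at most 10 ng of RNA and carry no molecular identifiers. The exact interval of the *Mycl* ratio covers counting error alone, and intervals of log2 fold changes cover the spread between libraries. The authors quantified the reads with salmon (Salmon and GRCm38 per the submitters' processing notes, version and annotation release not given in the sources used here), summed transcripts to genes with tximport and deposited estimated counts for 54347 genes, rounded to whole numbers and not normalized. No sample column was left unused. Coordinates come from GENCODE M21, which holds 54094 of the genes, and promoter sequences from RefSeq.

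Counts were normalized by TMM, filtered by filterByExpr (minimum count 10) and tested with edgeR 4.0.16 (limma 3.58.1, R 4.3.3) by the quasi-likelihood test with Benjamini-Hochberg adjustment over all genes tested. Each of 4 comparisons used its 8 libraries, and the interaction all 16. The replicate number was a block in each fit. Calls required an adjusted p under 0.05 plus a fold above 1.5 (the interaction at the adjusted p alone). The SE of a log2 fold change was obtained from its F statistic. CPM used TMM library sizes, and CPM per kilobase the merged exon length. The procedure was tested on simulated data.

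Samples of a group carry the numbers 1 to 4 in the labels. Deviations of same-numbered libraries from their group means correlated in every pair, with r from 0.30 to 0.61 between genotypes in LSKs, 0.28 to 0.62 in GMPs, 0.47 to 0.77 between cell types in WT and 0.44 to 0.58 in URE, so the numbers were taken to pair the libraries. Libraries of different numbers within the sets 1 and 4 or 2 and 3 also correlated, with a mean r of 0.29 between genotypes in LSKs, 0.32 in GMPs, 0.25 between cell types in WT and 0.27 in URE. Among the WT libraries, a URE library correlated best with that of its own number in 3 of 4 cases in either cell type, and a GMP library with the LSK library of its own number in 4 of 4 in either genotype. No replicates were near-identical (chi-square per degree of freedom at least 32.4).

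The members, gene lists and tests were chosen with earlier results of these data known. All 10 members are named, with *Spi1* as the genotype check, at most 4 called genes per list and comparison (those with the largest change), and the 5 genes most like *Myc* and *Max*. Alternatives were no block, DESeq2 1.42.0 with and without the block, RLE size factors, no or a stricter filter (1 CPM in 4 libraries), no fold threshold, a joint fit of 16 libraries, that fit with Y-linked transcripts as a covariate, either pair of replicate numbers alone, and leaving out each library. The count of MYC target genes, the changes of list genes and the counts of members without *Mycl* under these settings were added after the data were seen. Plots were drawn with matplotlib 3.10.9.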

Additional observations from a re-analysis of the deposited data

Results flagged for a closer look

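In a group of 4 libraries, 1 library stood far from the other 3 in 4 of the 44 groups examined (10 members and the total count in 4 groups). Chance flags about 1 in 20, but 2 of the 4 cannot be read against that rate, since 1 count beside 3 libraries at 0 always stands apart. *Mycl* was highest in replicate 1 of WT LSKs, at 0.896 CPM. It was 0.0331 CPM in replicate 2 of URE LSKs and 0.0522 CPM in replicate 2 of URE GMPs, each of which is 1 count where the other 3 libraries of the group had 0. *Mxd4* was 31.9 CPM in replicate 2 of WT LSKs, where the others lay between 19.4 and 20.4 CPM.

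The edgeR interaction test found a genotype effect that differed between LSKs and GMPs for genes of several lists. Of the 77 known MYC target genes, 18 had a lower genotype effect in GMPs than in LSKs, which is 23.4% against 2.6% of all genes. In edgeR that count became 0 without the replicate block, 1 in replicates 1 and 4, 0 in replicates 2 and 3, and 4 to 21 with single libraries left out. DESeq2 called 29 of the 77 lower with the block and 7 without it, against 5.93% and 1.56% of the genes it gave an adjusted p. *Mlx* had a higher effect in GMPs, by 1.53 on the log2 scale. Among the other pathway genes the effect was higher in GMPs for *Ier3* (1.84), *Ndrg2* (1.28) and *Cdkn1a* (1.05), and lower for *Set* (-1.19), *Cbx3* (-1.12), *Usp37* (-0.997) and *Ppp2r5a* (-0.77). *Ier3* was called in 23 of 25 alternatives, *Cdkn1a*, *Set* and *Ppp2r5a* in 21, *Ndrg2* in 19, *Usp37* in 9 and *Cbx3* in 8. Without the block edgeR called *Ier3* and none of the other 6. With single libraries left out the adjusted p reached 0.107 for *Cbx3*, 0.104 for *Usp37* and 0.0589 for *Ndrg2*, and stayed under 0.05 for the other 4.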

How the results depend on the processing

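Of 987 recomputed fold changes of single members, 937 kept their direction and 840 also their side of the threshold. The 987 include 18 of *Mycl* between genotypes in either cell type. Those could only be lower and say nothing of its stability. For list genes, 101 calls (a gene in a comparison) were recomputed 2013 times, and all kept their direction while 427 missed the threshold. Among them, the calls of *Egr1* in WT and of *Hspa1a* in both genotypes had a direction fixed by the filter and say nothing of their stability.

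Called members changed as follows. Counts between genotypes that include *Mycl*, which could only be called lower, say nothing of its stability. With *Mycl* left out, 1 called in LSKs became 0 without the replicate block, in DESeq2 without it and in replicates 2 and 3, 2 in DESeq2 with the block, with no filter and in replicates 1 and 4, and 0 to 3 with a library left out. In GMPs 3 became 1 without the replicate block, with the Y-linked covariate and in replicates 1 and 4, 2 in DESeq2 without the block, 4 with no filter, 0 in replicates 2 and 3, and 1 to 3 with a library left out. With *Mycl* included, the counts moved as follows in some of the settings, and the list is not complete. In LSKs the main count of 2 between genotypes became 1 without the replicate block, in DESeq2 without the block and with the stricter filter, and 0 in replicates 2 and 3 alone, and lay between 0 and 3 with single libraries left out. In GMPs 4 became 2 without the replicate block, with the Y-linked covariate and in replicates 1 and 4 alone, 0 in replicates 2 and 3 alone, and 2 to 4 with a library left out. For GMPs against LSKs in WT, 5 became 2 without the replicate block, 3 in DESeq2 without it, with the Y-linked covariate and in replicates 1 and 4 alone, 1 in replicates 2 and 3 alone, and 3 to 5 with a library left out. In URE, 2 became 1 without the replicate block, in both DESeq2 fits, with RLE size factors, in both joint fits and in replicates 2 and 3 alone, and 1 to 2 with a library left out. In the interaction, 0 became 1 in DESeq2 with the block and with the stricter filter, and 0 to 1 with a library left out.

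Target genes changed as follows. In LSKs the count higher in URE was 0 and became 4 in DESeq2 with the block and in the joint fit, 1 in DESeq2 without the block and with the Y-linked covariate, 2 with RLE size factors, no fold threshold or replicates 1 and 4 alone, 3 with no filter, and 0 to 2 with a library left out. The 6 lower in URE GMPs became 2 without the replicate block, 3 in DESeq2 without it and with the Y-linked covariate, 10 with no fold threshold, 0 in either pair of replicate numbers, and 2 to 5 with a library left out. The 56 higher in WT GMPs became 37 in replicates 1 and 4 and 33 in replicates 2 and 3, and 53 to 61 with a library left out. In URE 15 became 26 with no fold threshold and 2 in replicates 2 and 3, and 11 to 19 with a library left out. The 18 of the interaction became 0 without the replicate block and in replicates 2 and 3, 29 and 7 in DESeq2 with and without the block, 1 in replicates 1 and 4, and 4 to 21 with a library left out. Fits on 2 libraries a group have few residual degrees of freedom.

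The changes that reversed belonged to members with no call in that comparison. With the Y-linked covariate, URE against WT gave *Mxd3* 0.25 in LSKs, and *Myc* 0.011 and *Mxd1* -0.091 in GMPs. In replicates 1 and 4 alone it gave *Mxd3* 0.18 in LSKs and *Mxd1* -0.34 and *Mga* -0.067 in GMPs, and in replicates 2 and 3 alone *Mnt* -0.12 in LSKs and *Mxd3* -0.26 in GMPs. GMPs against LSKs in URE gave *Max* 0.17 in replicates 1 and 4, *Mxd1* 0.32 and *Mxi1* -0.015 in replicates 2 and 3, and *Mxd3* (0.00063 in the reported fit) -0.077 without the replicate block, -0.0042 in DESeq2 without it, -0.0080 with no filter, -0.019 with the stricter filter, -0.023 in the joint fit, -0.018 with the Y-linked covariate, -0.014 in replicates 1 and 4 and -0.058 in replicates 2 and 3. The interaction of *Mxi1* was -0.22 in replicates 2 and 3. With single libraries left out, URE against WT in LSKs ranged from -0.069 to 0.76 for *Max*, -0.39 to 0.30 for *Mxd3* and -0.093 to 0.18 for *Mnt*. In GMPs it ranged from -0.21 to 0.033 for *Myc*, -0.15 to 0.22 for *Mxd1*, -0.074 to 0.36 for *Mxd3* and -0.025 to 0.21 for *Mga*. GMPs against LSKs in URE ranged from -0.32 to 0.14 for *Mxd1*, -0.20 to 0.21 for *Mxd3* and -0.16 to 0.43 for *Mxd4*. The interaction of *Mycl*, which depends on the prior count since URE libraries held almost no counts, ranged from -2.91 to 0.69. That of the other members ranged from -0.034 to 0.47 for *Mxd3*, -0.027 to 0.47 for *Mnt*, -0.00013 to 0.28 for *Mxi1* and -0.25 to 0.047 for *Mga*. The cause was not tested. Other size factors moved the median of all genes by less than 0.1.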
